A study of Papio hamadryas with 72 samples.

Results

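Mitochondrial ribosomal protein genes were described here in liver, skeletal muscle and omental adipose of juvenile baboons. They were taken as all genes whose symbol in the probe annotation of the array starts with MRPL or MRPS and a digit. After 1 pseudogene and 2 antisense RNAs were left out, 72 genes remained of 16828 genes with 1 symbol, 45 named MRPL and 27 named MRPS. By known structure 47 of them encode proteins of the large subunit and 25 of the small subunit, since MRPS18A and MRPS30 sit in the large subunit despite their names.

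The mitochondrial ribosome translates the few mRNAs that mitochondrial DNA encodes, all of them for subunits of the respiratory chain and the ATP synthase. Its RNA comes from the mitochondrial genome, but every one of its proteins is encoded in the nucleus and imported, so that nuclear and mitochondrial genes have to be used together when a tissue builds oxidative capacity. Many of its proteins descend from the bacterial ribosome, whereas others were added in the mitochondrial lineage, and the tissues studied here differ in how many mitochondria a cell holds, with skeletal muscle among the richest.

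The animals were about 4.5 years old and came from mothers fed a nutrient reduced diet in pregnancy and lactation (MUN, 6 animals) or from mothers fed ad libitum (CON, 6 animals), with 3 females and 3 males in each. Every animal ate chow from weaning and was biopsied at week 0, on chow, and at week 7 of a high-fat, high-carbohydrate diet with a high-fructose drink (HFCS), in the right lobe of the liver, the vastus lateralis muscle and the omental adipose. The 72 arrays thus fall into 12 groups of 6, which are MUN on HFCS, MUN on chow, CON on HFCS and CON on chow in each tissue. No array came from an animal that stayed on chow until week 7, so that an effect of the diet cannot be told apart from one of time or of the first biopsy. RNA of whole biopsies was hybridised to a human Illumina BeadChip, and in such samples fewer cells of a type and less RNA per cell cannot be told apart. A human probe can also read a baboon transcript dimly, so no probe's level was set against that of another probe.

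A probe counted as detected where its score exceeded 0.95, a probe was kept in a tissue if 6 or more of 24 arrays detected it, and each gene was read from its brightest kept probe. By this rule 61 of the 72 genes were measured in adipose, 64 in liver and 62 in skeletal muscle. In every tissue 59 were measured, 57 of them with the same probe. MRPL3, MRPL47 and MRPL50 were kept in 2 tissues, whereas MRPL13, MRPL49 and MRPS7 were kept only in liver and MRPL44 only in adipose. In muscle MRPL47 was detected on 6 arrays and was kept only with CON replicate 5 on chow, an array set apart below. Without that array 61 genes were measured in muscle. No probe passed for 6 genes, MRPL1, MRPL15, MRPL40, MRPL42, MRPL46 and MRPL48. MRPL49, a large-subunit protein of the mitochondrial lineage, was detected on 18 of 24 liver arrays and on 0 arrays of adipose and of muscle. Its liver level was at least 1.07-fold higher than the level that could have been detected in adipose, and no such bound above 1 could be set against muscle.

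Before any comparison, 4 arrays stood apart from the rest of their tissue, with a median correlation to the other arrays between -0.00501 and 0.695, against 0.925 to 0.975 for the other 68 arrays. They were MUN replicates 4 and 6 on chow and MUN replicate 4 on HFCS in liver, and CON replicate 5 on chow in skeletal muscle. On the 3 liver arrays 15 to 57 of the genes were detected, against 56 to 62 on the other liver arrays, and on the muscle array 3 were detected, against 54 to 61. The markers of these arrays went against their labels. On the 3 arrays labelled liver the log2 signal of ALB, albumin, before normalisation was 6.71, 6.68 and 7.03 in that order, against 13.73 to 14.83 on the other 21, and 5 to 8 of 12 hepatocyte markers were detected, against 11 or 12. Both chow arrays among them still detected 10136 and 9891 probes. Myofiber markers were detected at 0 or 1 of 13 and adipocyte markers at 2 to 4 of 7 on the 3 arrays. On the muscle array 1 of 13 myofiber markers was detected, against 13 on the other 23. These 4 are called weak arrays, and what they hold was not tested. A further muscle array, CON replicate 1 on chow, carried RNA of hepatocyte markers, with a mean log2 signal of 12.75 over the 3 kept of 12 markers, against 7.30 on the next highest muscle array. Under the detection filter, which used all arrays, each tissue kept its own markers, with 12 of 12 hepatocyte markers kept in liver, 13 of 13 myofiber markers in muscle and 7 of 7 adipocyte markers in adipose. Results are therefore given with all 72 arrays and without the 4 weak arrays.

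Between tissues the genes as a group were highest in skeletal muscle. On the array-wide scale, which was set over all 72 arrays, 40 of 66 genes measured in at least 1 tissue differed between adipose and muscle (adjusted p under 0.05, difference of 1.2-fold or more), 3 of them higher in adipose and 37 lower. Over all genes tested 39.8% were called in this comparison, and 60.2% of those were higher in adipose. The median difference over the 66 genes was -0.32 on the log2 scale, beside -0.02 over all 10966 genes tested. The call rate in liver against muscle (34 of 66) lay close to that of all genes (53%), but its directions did not, with 5 higher in liver and 29 lower, a median of -0.23 for the 66 genes and of -0.03 over all genes.

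In adipose against liver 30 of 66 genes were called, a share close to the 49.1% of all genes. Of these 5 were higher in adipose and 25 lower, whereas 53.6% of all called genes were higher, and the median over the 66 genes was -0.22 beside 0.04 for all genes. This direction depended on the scale. When every array was only shifted to a common median, 10 genes were higher and 13 lower in adipose than in liver, with a median of -0.01 beside 0.10 for all genes (62.7% of all called genes were then higher). With the weak arrays also left out, 8 were higher and 18 lower, where 60.0% of all called genes were higher. The same shift over all arrays left 6 higher and 28 lower in adipose than in muscle (72.1% of all called genes were then higher in adipose), and 5 higher and 27 lower in liver than in muscle (50.2% of all called genes higher in liver). Without the 4 weak arrays the calls on the array-wide scale were 5 higher and 29 lower for adipose against liver (55.4% of all called genes higher), 2 and 42 for adipose against muscle (60.1%), and 2 and 33 for liver against muscle (48.9%). For liver against muscle the shift to a common median, applied without the weak arrays, gave 8 higher and 26 lower (50.2% of all called genes higher).

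**Figure D1:**
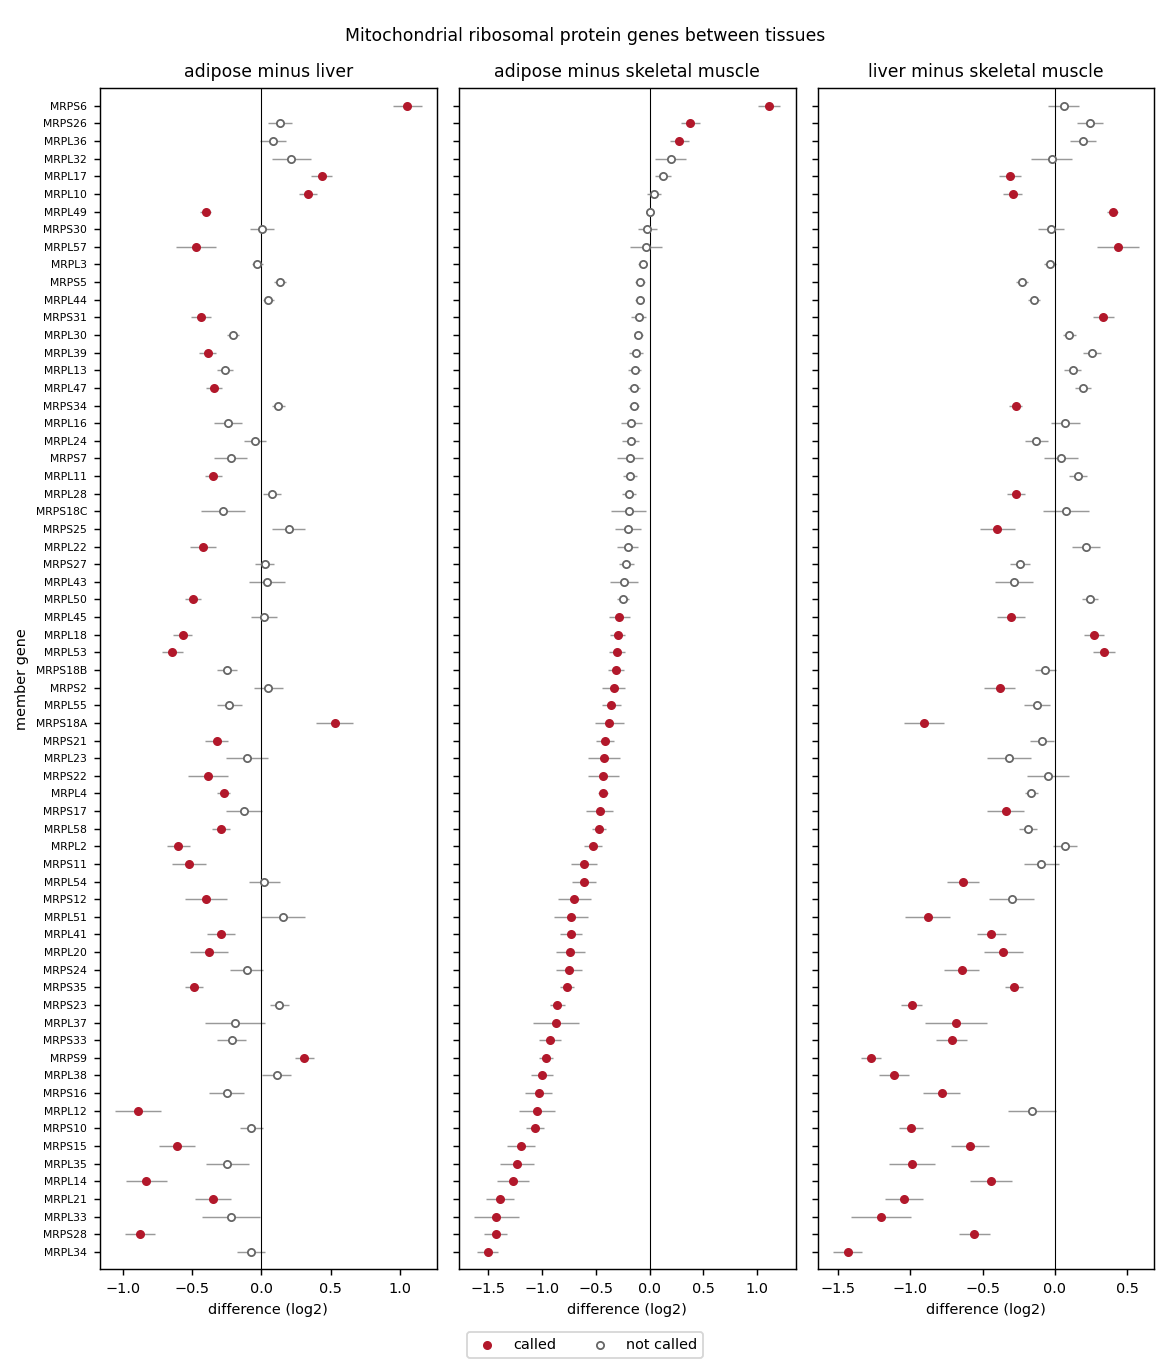
Differences in log2 signal between tissues for the 66 genes, over all 72 arrays; points are fitted differences, bars are 1 standard error, and filled points passed the test. Most of the 40 called genes in the middle panel lie left of 0, as 37 were lower in adipose than in muscle, and MRPS6 stands alone on the right in both adipose panels. On the median scale the split for adipose against liver was 10 higher and 13 lower.

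In the following, ranges of log2 signal are over the 68 arrays, normalised without the weak ones, and differences with their standard errors are from the limma fit over all 72 arrays with Benjamini-Hochberg adjustment. The genes named are the up to 8 called ones with the largest difference in each direction that were detected in both tissues.

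Of the large-subunit proteins with a bacterial counterpart, MRPL34, among the smallest proteins of the particle, spanned 8.12 to 8.93 (median 8.45) in adipose and 8.37 to 8.67 (median 8.53) in liver, against 9.31 to 10.71 (median 10.13) in muscle. Every adipose and every liver array lay below every muscle array. The difference was -1.51 ± 0.10 (SE, adjusted p = 1.02e-20) for adipose minus muscle and -1.43 ± 0.10 (SE, adjusted p = 6.11e-20) for liver minus muscle. MRPL33, another small protein of the large subunit, spanned 9.67 to 11.08 (median 10.71) in adipose and 10.33 to 11.34 (median 11.04) in liver, against 11.56 to 12.87 (median 12.38) in muscle, again without overlap. Its difference from muscle was -1.43 in adipose (adjusted p = 1.8e-08) and -1.21 in liver (adjusted p = 6.45e-07). MRPL21 and MRPL35, also with bacterial counterparts, showed the same order of tissues without overlap to muscle. MRPL21 spanned 8.36 to 9.23 (median 8.71) in adipose and 8.73 to 9.49 (median 9.05) in liver, against 9.49 to 10.81 (median 10.39) in muscle. MRPL35 differed by -1.23 for adipose minus muscle and by -0.99 for liver minus muscle. With the 6 CON animals on chow alone neither difference passed the test (adjusted p = 0.0538 and 0.286). That fit kept the weak muscle array. With normalisation within muscle, MRPL35 was 7.35 on that array, against 9.53 to 10.31 on the other CON muscle arrays on chow.

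MRPL14, which lies at the interface of the subunits, was lowest in adipose. It spanned 8.21 to 8.89 (median 8.52) there, against 9.08 to 10.30 (median 9.61) in liver and 9.27 to 10.51 (median 10.00) in muscle. Adipose overlapped neither tissue, and the differences were -0.83 ± 0.15 (SE, adjusted p = 1.35e-06) against liver and -1.27 ± 0.15 (SE, adjusted p = 2.28e-11) against muscle. MRPL2, which shapes the region of the peptidyl transferase centre, was lower in adipose than in liver, with a difference of -0.60 (adjusted p = 3.21e-09). MRPL12, the stalk protein that recruits translation factors, spanned 7.49 to 9.10 (median 8.15) in adipose against 8.71 to 9.17 (median 8.97) in liver, a difference of -0.89 ± 0.17 (SE, adjusted p = 3.91e-06). With CON on chow alone it was -0.63 and did not pass (adjusted p = 0.123). MRPL10, which anchors MRPL12 to the ribosome, was called in the other direction with 0.34, but its other detected probe had the opposite sign. MRPL17, at the exit of the peptide tunnel, was 0.44 higher in adipose than in liver. It spanned 8.20 to 8.98 (median 8.53) in adipose, against 7.73 to 8.41 (median 8.07) in liver, and those ranges overlapped.

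Among small-subunit proteins with a bacterial counterpart MRPS6 went its own way. It spanned 9.16 to 10.31 (median 9.71) in adipose, against 8.07 to 8.92 (median 8.57) in liver and 8.26 to 9.50 (median 8.54) in muscle. Every adipose array lay above every liver array, while the highest muscle array reached into the adipose range. Its difference was 1.05 ± 0.10 (SE, adjusted p = 7.8e-14) against liver and 1.11 ± 0.10 (SE, adjusted p = 1.34e-14) against muscle, the largest upward difference among the called genes of both comparisons. MRPS10, of the head of the small subunit, spanned 8.03 to 8.46 (median 8.31) in adipose and 8.05 to 8.76 (median 8.29) in liver, against 9.09 to 9.85 (median 9.41) in muscle. Muscle stood clear of both other tissues, with differences of -1.07 for adipose and -0.998 for liver. MRPS9, whose bacterial counterpart reaches the tRNA site between the subunits, was lower in liver than in muscle, with -1.28 ± 0.07 (SE, adjusted p = 1.59e-25), and was 0.31 higher in adipose than in liver. The second of these was lost on genes detected in every tissue (adjusted p = 0.0846) and with CON on chow alone (adjusted p = 0.0687). MRPS15, which binds the small rRNA, was lower in adipose than in liver (-0.61) and than in muscle (-1.19). MRPS11, of the platform where mRNA leaves the ribosome, differed by -0.52 for adipose minus liver, with 8.23 to 8.94 (median 8.61) in adipose below 8.94 to 9.54 (median 9.26) in liver.

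MRPS28, a protein of the small subunit, had a different level in each tissue. It spanned 7.62 to 8.38 (median 8.01) in adipose, 8.43 to 9.38 (median 8.95) in liver and 9.11 to 9.96 (median 9.59) in muscle. Adipose overlapped neither of the others, whereas liver and muscle overlapped. The differences were -0.88 ± 0.11 (SE, adjusted p = 1.49e-10) for adipose minus liver and -1.43 ± 0.11 (SE, adjusted p = 2.16e-18) for adipose minus muscle. MRPS18A, 1 of 3 relatives of a single bacterial small-subunit protein and the one placed in the large subunit, had its lowest levels in liver. It spanned 8.55 to 9.09 (median 8.82) in adipose, against 7.87 to 8.36 (median 8.10) in liver and 8.35 to 9.80 (median 9.37) in muscle. All adipose arrays lay above all liver arrays (difference 0.53, adjusted p = 0.000474).

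**Figure D2:**
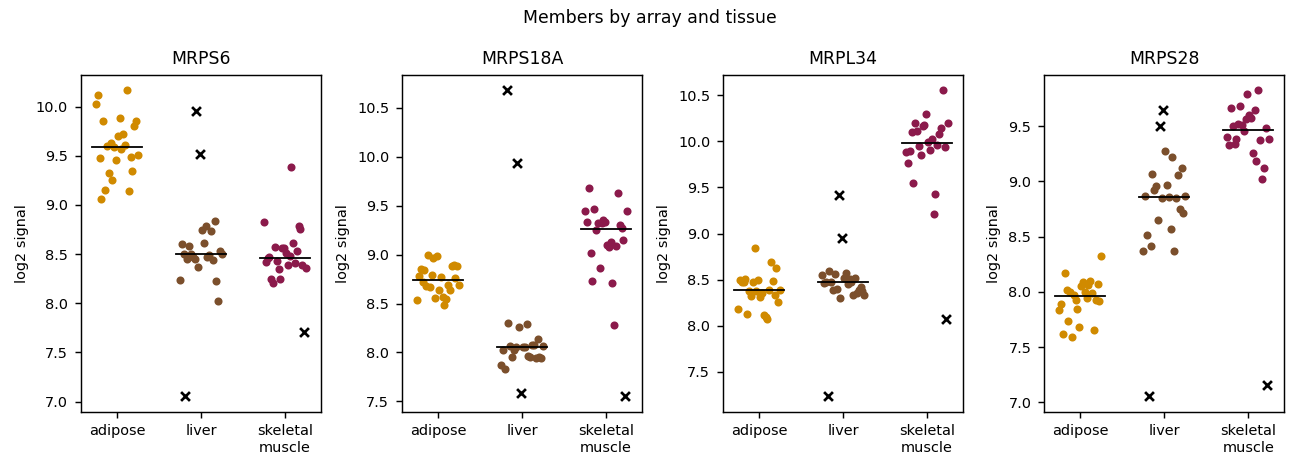
Log2 signal of MRPS6, MRPS18A, MRPL34 and MRPS28 on each of the 72 arrays, normalised together, by tissue. Crosses mark the 4 weak arrays, and lines are the medians over all arrays of the tissue, weak ones included. MRPL34 separates muscle from both other tissues, MRPS6 is highest in adipose, and MRPS28 differs at each step from adipose to liver to muscle.

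Among proteins added in the mitochondrial lineage, MRPL38, at the central protuberance, spanned 7.28 to 8.14 (median 7.73) in liver, against 8.22 to 9.34 (median 9.09) in muscle. Liver minus muscle was -1.11 ± 0.10 (SE, adjusted p = 6.97e-15). MRPS23 spanned 7.23 to 7.81 (median 7.56) in liver, against 8.04 to 9.10 (median 8.65) in muscle, with a difference of -0.99 ± 0.07 (SE, adjusted p = 1.19e-19). For both genes all liver arrays lay below all muscle arrays. MRPL53, a large-subunit protein, was highest in liver, with 7.12 to 7.52 (median 7.38) in adipose and 7.60 to 8.25 (median 7.92) in liver, against 7.28 to 8.18 (median 7.68) in muscle. Adipose minus liver was -0.64 ± 0.08 (SE, adjusted p = 3.77e-11) without overlap, and its excess in liver over muscle of 0.34 came to 0.24, under the fold threshold, without the weak arrays. MRPS31, of the small subunit, was 0.34 higher in liver than in muscle with all arrays and 0.28 higher without the weak ones. MRPS26 was 0.38 higher in adipose than in muscle.

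The smaller upward calls did not hold in every setting. MRPL57 was called 0.44 higher in liver than in muscle, against 0.23 without the weak arrays, and MRPL18, a protein of the central protuberance, 0.27 against 0.19, with the opposite sign for its other probe. MRPL18 was also -0.57 in adipose minus liver. MRPL36, a small protein of the large subunit, was called 0.28 higher in adipose than in muscle and came to 0.21 without the weak arrays. Each of these differences without the weak arrays was under a fold change of 1.2. Among further probes of called genes that were kept in both tissues compared, 1 of 6 differed in sign from the called one in adipose against liver (MRPL10), 0 of 6 in adipose against muscle and 2 of 4 in liver against muscle (MRPL10 and MRPL18).

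Counted over the 68 arrays and the genes kept in both tissues compared, 12 of 59 ribosomal genes had all adipose arrays below all muscle arrays and 0 above, beside 6.4% of all such genes below and 6.17% above. Besides those already described they were MRPL37, MRPL51, MRPS33 and MRPS35. MRPS33 has another probe, detected on 15 adipose arrays but on 3 muscle arrays, so that it was not kept in muscle. For adipose minus muscle that probe gave 0.14, against -0.93 for the probe used. In liver against muscle 10 of 60 were wholly below and 0 above, beside 11.5% and 7.73% of all such genes. In adipose against liver 4 of 58 were wholly below (MRPL14, MRPL53, MRPS11 and MRPS28) and 2 wholly above (MRPS6 and MRPS18A), beside 7.18% and 12.5%, so that there the share of these genes without overlap was no larger than in the rest of the array.

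By subunit the median of adipose minus muscle was -0.28 over 41 large-subunit genes (1 called higher, 21 lower) and -0.43 over 25 small-subunit genes (2 higher, 16 lower). By descent it was -0.38 over 40 genes with a bacterial counterpart and -0.29 over 24 of the mitochondrial lineage. In adipose minus liver these medians were -0.24 and 0.01 with all arrays, and -0.24 and -0.12 without the weak ones. None of these differences between groups of genes was tested.

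The protein genes of complex I of the respiratory chain, part of whose subunits the mitochondrial ribosome makes, moved further than the ribosomal genes in adipose minus muscle, with 24 of 27 called lower, 0 higher and a median of -1.05. The proteins of the cytosolic ribosome went the other way, with 20 of 65 called higher, 1 lower and a median of 0.46. Of 12 measured mitochondrial translation factors 8 were called lower in adipose than in muscle and 0 higher, among them GFM1, an elongation factor, with -1.10 and TACO1, the activator of cytochrome oxidase subunit translation, with -1.08. Of 10 assembly and rRNA factors 3 were lower, led by FASTKD2, which binds the large rRNA, with -0.93. Of 9 mitochondrial aminoacyl-tRNA synthetases 2 were lower, FARS2 for phenylalanine (-0.38) and TARS2 for threonine (-0.34). Of 11 regulators 3 were higher and 2 lower. PPARGC1A, a coactivator of mitochondrial genes, was lower (-1.93), and GABPA, a factor at promoters of such genes, was higher (0.63). DAP3, a small-subunit protein outside the naming rule, was lower in adipose than in liver (-0.55) and not called against muscle (-0.11).

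The study asked whether a mother's reduced diet and the HFCS challenge of her offspring altered gene expression in each tissue. For this, arrays were normalised within a tissue and groups of 6 compared with limma. With all arrays 0 of the ribosomal genes were called in any of 3 tissues for MUN against CON on chow or on HFCS, for HFCS against chow in MUN, in CON or in both, or for the difference between the 2 diet changes. Few other genes were called there either. In adipose MUN against CON on HFCS gave 2 of 9277 genes (0.0216%) and HFCS against chow in both groups gave 1 (0.0108%). In muscle HFCS against chow in CON gave 6 of 8052 (0.0745%), and each of the other comparisons gave 0%. In several liver and muscle comparisons the paper reported far more genes than were called here, and the reason was not tested. The methods' own kind of test, without moderation of the variances, called 0 ribosomal genes as well. At an unadjusted p under 0.05 the limma counts were 0 to 8 of 61 in adipose, 0 to 17 of 64 in liver and 0 to 10 of 62 in muscle. These ranges stand without the share of all genes in each comparison, so they do not set the ribosomal genes apart from the array.

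**Figure D3:**
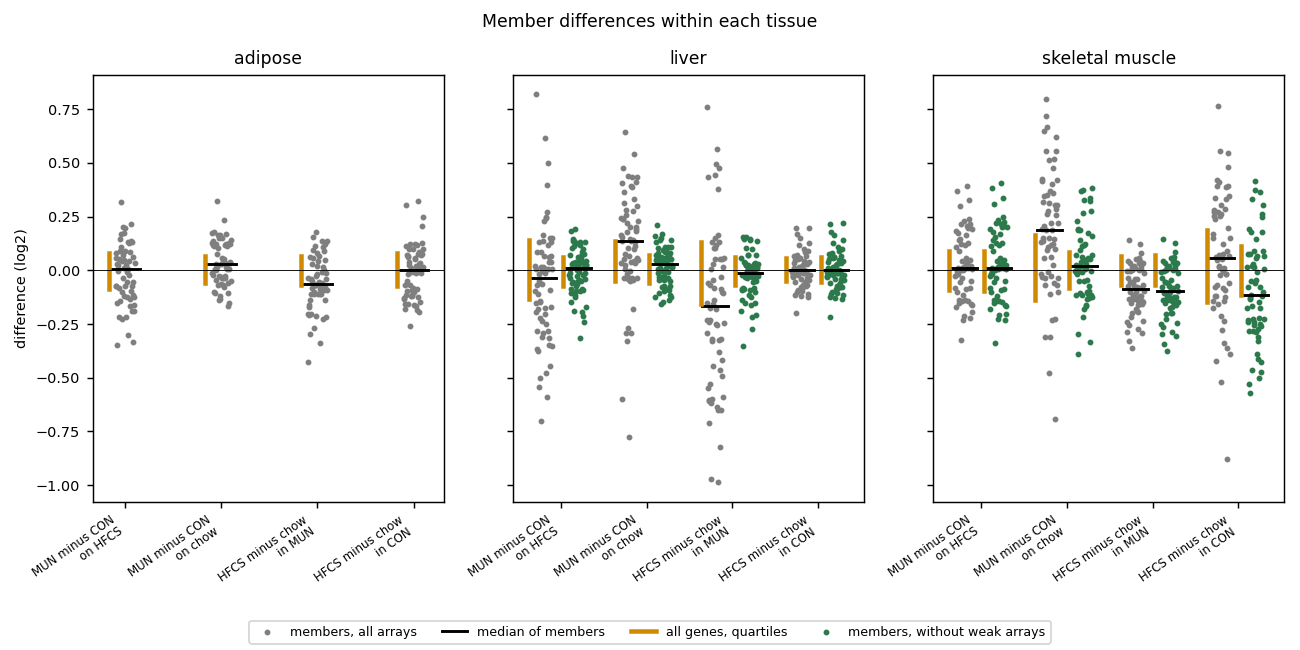
Differences in log2 signal within each tissue, 1 point per ribosomal gene; black lines are medians, orange bars the quartiles over all genes, grey points all arrays and green points the fit without weak arrays. The wide grey clouds of liver MUN on HFCS against chow and of muscle CON on HFCS against chow narrow or move when the weak arrays are left out, with medians of -0.17 and 0.06 with all arrays and of -0.01 and -0.11 without.

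In adipose, where no array stood apart, the median of HFCS minus chow was -0.07 in MUN, with 42 of 61 genes lower, and 0.00 in CON, with 30 lower, beside 0.00 over all genes in each. The smallest p-values belonged to MRPL2 and MRPS12, which forms part of the decoding centre. MRPL2 in MUN spanned 8.49 to 8.64 (median 8.55) on HFCS and 8.69 to 9.17 (median 8.80) on chow. It was lower on HFCS in 6 of 6 MUN animals, with a difference of group means of -0.30 ± 0.09 (SE) and an adjusted p of 0.999. MRPS12 in MUN spanned 9.52 to 9.80 (median 9.68) on HFCS and 9.67 to 10.43 (median 9.99) on chow. It was lower on HFCS in 5 of 6 animals (difference -0.34, adjusted p = 0.999).

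MRPL17 gave the smallest p-value for MUN against CON on HFCS. It spanned 8.53 to 8.88 (median 8.77) in MUN on HFCS and 8.61 to 9.21 (median 8.88) in MUN on chow. In CON it spanned 8.91 to 9.31 (median 9.07) on HFCS and 8.55 to 8.94 (median 8.80) on chow. All MUN animals on HFCS thus lay below all CON animals on HFCS, a difference of -0.35 ± 0.09 (SE) with an adjusted p of 0.182. In CON it was higher on HFCS in 6 of 6 animals (0.31, adjusted p = 0.472), and in MUN in 2 of 6. MRPS33, of the small subunit, had a difference of -0.33 for MUN minus CON on HFCS (adjusted p = 0.300), with 8.16 to 8.62 in MUN against 8.59 to 8.83 in CON. MRPL34 differed by -0.26 between HFCS and chow in CON (adjusted p = 0.551), with 5 of 6 animals lower. For MUN against CON on chow MRPS2 and MRPL33 had the smallest p, with differences of 0.17 and 0.32 (adjusted p near 1). MRPL33 was low in CON replicate 1, with 9.97 on chow, against 10.85 to 10.96 on the other CON arrays on chow. The same animal had 10.00 on HFCS, against 10.90 to 11.21 in the other CON animals. It was also the lowest CON animal for MRPL33 in liver and, without the weak array, in muscle. In liver it had 10.19 on chow and 10.30 on HFCS, against 10.61 to 11.21 and 10.81 to 11.13 in the others. In muscle it had 11.53 and 11.46, against 12.12 to 12.72 and 11.77 to 12.40. The difference of 0.32 includes this animal.

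In liver the values moved with the 3 weak arrays, whose hepatocyte markers went against their label. The median of HFCS minus chow in MUN was -0.17 over 64 genes, with 43 lower and 17 of them at an unadjusted p under 0.05 (8.38% of all genes). Without the weak arrays it was -0.01, with 35 lower and 3 of them at that p (1.69% of all genes). In CON, with no weak liver array, the median was 0.00 in both fits. The median of MUN minus CON on chow likewise was 0.14 with all arrays and 0.03 without the weak ones. MRPS15 gave -0.99 for HFCS minus chow in MUN with all arrays (adjusted p = 0.470). Without the weak arrays it spanned 9.43 to 9.82 on HFCS and 9.62 to 10.15 on chow, in 5 and 4 MUN animals.

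MRPL2 kept its direction in liver of MUN. Without the weak arrays it spanned 8.48 to 8.80 (median 8.63) on HFCS and 8.73 to 9.26 (median 9.01) on chow. It was lower on HFCS in 4 of 4 MUN animals with both arrays with a difference of -0.35 ± 0.12 (SE, adjusted p = 0.999), and with all arrays of -0.61 (adjusted p = 0.470). In CON it was higher on HFCS in 4 of 6 animals. The difference between the 2 changes was -0.36 without the weak arrays and did not pass the test (adjusted p = 0.999). In the other tissues MRPL2 was lower on HFCS in CON too, in 4 of 6 animals in adipose and in 5 of 5 in muscle. In muscle of MUN it was lower in 6 of 6 animals. Of the remaining genes in liver, MRPL32, a large-subunit protein that is processed after import, had -0.19 for MUN minus CON on HFCS (adjusted p = 0.754) without the weak arrays.

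In skeletal muscle 1 weak array lay in the CON group on chow. With it HFCS minus chow in CON had a median of 0.06 over 62 genes, and without it -0.11 over 61 genes, beside -0.01 over all genes. The median in MUN, which had no weak muscle array, was -0.09 with all arrays and -0.10 without, with 44 of 61 genes lower. Over both groups without the weak array 46 of 61 were lower on HFCS and 12 of these had an unadjusted p under 0.05 (5.06% of all genes), against 0 among the higher ones (4.42% of all genes). The smallest adjusted p among them was 0.260, for MRPS17 at -0.28, and the all-gene median was 0.00. Complex I subunits were lower in 25 of 27, 14 of them at that p and 0 called. Under a shift to a common median 32 of the 61 ribosomal genes were lower, with a median of -0.02, and 20 of the 27 complex I genes.

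Without the weak array 1 gene was called, MRPL23, a protein at the mouth of the peptide exit tunnel, in CON on HFCS against chow. CON animals on HFCS had log2 signals of 9.93, 9.58, 10.05, 9.37, 9.45 and 9.97, against 10.26, 10.21, 10.51, 10.03 and 10.48 in CON animals on chow. Only the highest HFCS value, of replicate 3, reached into the chow range, and 5 of 5 animals with both arrays were lower on HFCS. The difference was -0.57 ± 0.13 (SE) with an adjusted p of 0.0488, in a comparison where 42 of 8007 genes were called (0.525%). In MUN, MRPL23 was lower on HFCS in 3 of 6 animals.

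MRPS17, of the small subunit, came next with -0.41 and an adjusted p of 0.0603. It measured 9.31, 9.06, 9.50, 8.98, 9.13 and 9.30 in CON on HFCS, against 9.56, 9.62, 9.71, 9.79 and 9.44 in CON on chow. With the 2 arrays of an animal as a block both genes passed (adjusted p = 0.0288 for MRPL23 and 0.0377 for MRPS17), where 1.27% of all genes did. In the other muscle and liver comparisons the block called 0 ribosomal genes, with at most 0.0375% of all genes in muscle (over both groups) and 0.035% in liver (in CON and over both groups). When the array with hepatocyte markers was also left out, 0 genes were called and MRPL23 had an adjusted p of 0.0950. When each of the 12 animals was left out in turn, the adjusted p of MRPL23 ran from 0.0367 to 0.158, and it passed in the fits without CON replicate 4 and without MUN replicate 5.

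The scale decided which genes were called there. With arrays shifted to a common median and the weak array left out, 10 genes were called in CON on HFCS against chow, 9 higher and 1 lower, where 523 of all genes (6.53%) were called, 453 higher and 70 lower. MRPL23 was not among them, at -0.26 (adjusted p = 0.208). The 9 higher ones were MRPS30, MRPL18, MRPS28, MRPL35, MRPS31, MRPL45, MRPL32, MRPL36 and MRPS35, and the lower one was MRPS25. MRPS30, which sits in the large subunit, had the smallest p-value, with 0.53 ± 0.10 (SE) and an adjusted p of 0.00825. On the quantile scale it spanned 8.72 to 9.10 (median 8.94) in CON on HFCS, against 8.42 to 8.88 (median 8.71) in CON on chow, and was higher on HFCS in 3 of 5 animals.

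On the same median scale the change in MUN minus that in CON was called for 6 genes, all lower, MRPS30, MRPL35, MRPL18, MRPL32, MRPS28 and MRPS31, where 1.07% of all genes were called. MRPS30 differed by -0.85 ± 0.14 (SE, adjusted p = 0.0283). On the quantile scale it was also the gene with the smallest p, at -0.57 ± 0.13 (SE) with an adjusted p of 0.144. In MUN it spanned 8.55 to 8.80 (median 8.72) on HFCS, against 8.80 to 9.37 (median 8.97) on chow, and was lower on HFCS in 6 of 6 animals. MRPL35 followed with -1.03 on the median scale and -0.71 on the quantile scale (adjusted p = 0.205 there).

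MRPS35 of the small subunit and MRPL45, which tethers the ribosome to the inner membrane, had small p-values with all arrays. MRPS35 was 0.35 higher on HFCS than on chow in CON (adjusted p = 0.259) and 0.42 higher in MUN than in CON on chow (adjusted p = 0.548). It was lower on HFCS in 6 of 6 MUN animals and higher in 5 of 6 CON animals. MRPL45 was 0.55 higher on HFCS in CON (adjusted p = 0.209), with 7.91 to 8.56 (median 8.29) on HFCS, against 6.98 to 8.07 (median 7.83) on chow. The 6.98 is the weak array, and without it chow spanned 7.66 to 8.06 (median 7.92) and the difference was 0.42 (adjusted p = 0.135). For MRPS35 the 2 differences were 0.31 (adjusted p = 0.223) and 0.38 (adjusted p = 0.547) without it.

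Of the partner genes, 1 mitochondrial synthetase was called in muscle without the weak array. VARS2, which charges the tRNA for valine, was lower on HFCS than on chow in CON (-0.50, adjusted p = 0.0142). The other 8 synthetases measured, the 12 translation factors, the 9 assembly factors and the 11 regulators gave 0 calls in that comparison. At an unadjusted p under 0.05 they held 0 synthetases, 3 translation factors, 2 assembly factors and 2 regulators. These counts stand without the share of all genes at that p, so they do not set the partner genes apart from the array.

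**Figure D4:**
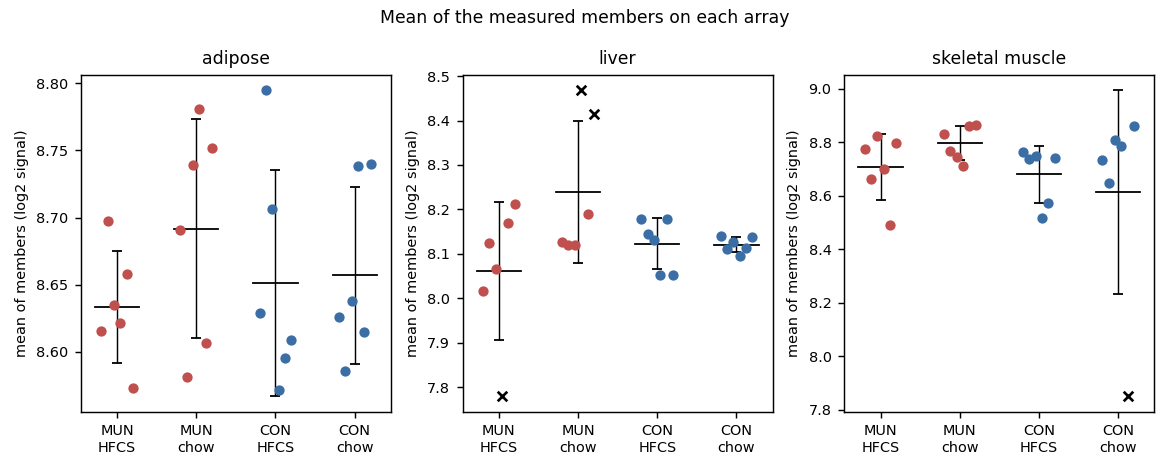
Mean log2 signal of the measured ribosomal genes on each array, by tissue and group, normalised within the tissue over all 24 arrays; lines are group means, bars 1 SD (n = 6), and crosses the weak arrays. Outside the crosses the means lie between 8.57 and 8.80 in adipose, 8.02 and 8.21 in liver and 8.49 and 8.86 in muscle, and the 4 groups of each tissue overlap.

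The mean over the genes on each array differed little between groups. In adipose it averaged 8.63 ± 0.04 (SD) in MUN on HFCS, 8.69 ± 0.08 in MUN on chow, 8.65 ± 0.08 in CON on HFCS and 8.66 ± 0.07 in CON on chow. In muscle without the weak array it averaged 8.75 ± 0.13 in MUN on HFCS, 8.85 ± 0.07 in MUN on chow, 8.72 ± 0.11 in CON on HFCS and 8.82 ± 0.08 in CON on chow. It was lower on HFCS in 5 of 6 MUN and in 3 of 5 CON animals in muscle. In liver without the weak arrays the group means lay between 8.29 and 8.31.

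The genes moved together from array to array, most of all in muscle. With group means removed and without the weak arrays, the median correlation of 2 ribosomal genes was 0.21 over 23 muscle arrays, 0.12 over 24 adipose arrays and 0.08 over 21 liver arrays, where that of 2 genes of the array was 0.00 in each tissue. Of pairs of ribosomal genes 76.1% correlated above 0 in muscle, 68.5% in adipose and 59.4% in liver, beside 49.9% of all pairs. Arrays share depth, RNA quality and tissue makeup, so that these are descriptions of the arrays. MRPS15 followed the mean of the others most closely in muscle (r = 0.85), MRPL35 in liver (r = 0.83) and MRPS30 in adipose (r = 0.73). MRPS6 had the lowest value in muscle (r = -0.30).

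In muscle the mean of the ribosomal genes ran with that of complex I subunits (r = 0.87 over 23 arrays) and of mitochondrial translation factors (r = 0.87), and not with that of cytosolic ribosomal proteins (r = 0.13). In adipose these were 0.81, 0.77 and -0.28, and in liver 0.71, 0.70 and -0.06. Within groups r for complex I ran from 0.79 to 0.94 in muscle, 0.27 to 0.96 in adipose and -0.80 to 0.90 in liver. For cytosolic ribosomal proteins it ran from -0.36 to 0.78, -0.84 to 0.66 and -0.63 to 0.52. The ribosomal mean was also set against that of 9 fibroblast and matrix genes, mostly collagens and proteins that bind them. In muscle they correlated at r = -0.86 and Spearman's rho = -0.68. With group means removed r was -0.85, and without the 2 arrays farthest from the median it was -0.78. That last value can leave out at most 2 of the arrays with matrix means of 10.55 (MUN replicate 5), 10.68 and 10.70 (CON replicates 4 and 5), all on HFCS. The next highest matrix mean was 9.64, and no correlation was taken without all of these arrays. Within groups r was -0.87 in MUN on HFCS, -0.50 in MUN on chow, -0.92 in CON on HFCS and -0.93 in CON on chow, over 5 or 6 arrays each. The values on HFCS include the arrays just named. The change from chow to HFCS of an animal gave r = -0.84 over 11 animals. Matrix genes were not alone in this. In muscle the ribosomal mean also ran against that of 8 macrophage genes (r = -0.62, rho = -0.69) and of 6 endothelium genes (r = -0.47, rho = -0.34). Within groups the macrophage r ran from -0.93 to -0.47. With the myofiber markers the ribosomal mean correlated at r = 0.53.

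The 3 lowest ribosomal means in muscle were 8.52 (MUN replicate 5), 8.55 (CON replicate 4) and 8.62 (CON replicate 5), all on HFCS. These were the 3 arrays with the highest matrix means, 10.55, 10.68 and 10.70. On the other HFCS arrays the matrix mean was 8.08 to 9.20 in MUN, against 8.11 to 9.08 on chow. In CON it was 8.50 to 9.29, against 8.44 to 9.64 on chow without the weak array. The differences given next include these 3 arrays. The 9 matrix genes were all higher on HFCS than on chow, by a median of 0.34 in MUN and 0.51 in CON without the weak array, while 12 of 13 myofiber markers were lower in CON (median -0.11). Of them 0 were called, and 1 in CON had an unadjusted p under 0.05. Their part in the differences of the ribosomal genes between diets was not tested.

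**Figure D5:**
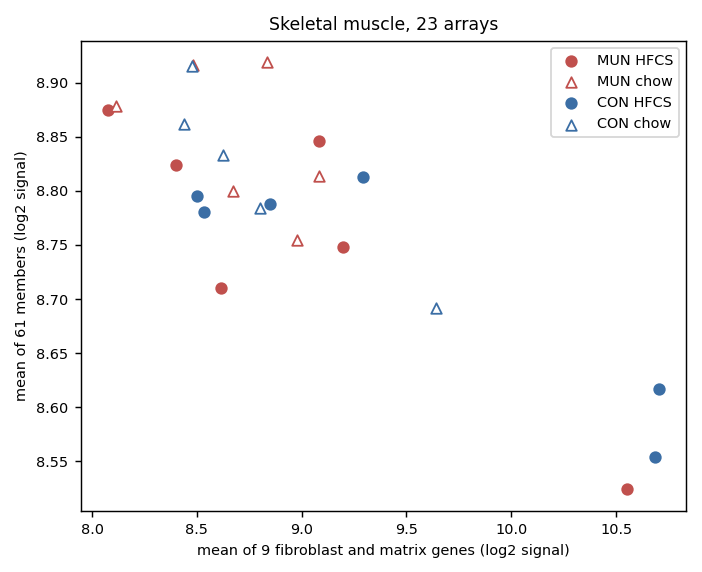
Mean log2 signal of 61 ribosomal genes against that of 9 fibroblast and matrix genes on the 23 muscle arrays without the weak one; filled circles are HFCS, open triangles chow, red MUN and blue CON. The 3 arrays at the lower right, all on HFCS, have ribosomal means of 8.52, 8.55 and 8.62.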

How the data were processed

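RNA of 72 biopsies, 24 per tissue, was labelled and hybridised to human Illumina BeadChips. The authors exported probe signals from GenomeStudio, and the deposited intensity values are on a linear scale without normalization. The deposited detection score beside each signal, named as a p-value in its header, rises towards 1 for probes above the negative controls. The authors tested genes in Partek, and versions of both tools are not given in the sources used here. Their value table, quantile normalised by its column medians (121.0 in each), served as an alternative.

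Log2 signals, with no background correction, were filtered on a score above 0.95 on at least 6 arrays of a tissue and quantile normalised, within the tissue for groups and over all arrays for tissues, in R 4.3.3. Probes with 1 symbol were used. The probe annotation can be old, and symbols were kept as it gives them. Group means were fitted with limma 3.58.1 (lmFit and eBayes, with statmod 1.5.0 for correlations), with Benjamini-Hochberg adjustment over all genes of a tissue, and called where the adjusted p was under 0.05 and the fold change 1.2 or more, after the study's methods, the sexes combined. Between tissues the animal was a random block. Arrays count as separate animals within a group, and each animal gave 1 array per tissue and diet. The number of arrays limits the precision.

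The animal labels pair the arrays on HFCS and chow. Residuals of the 2 arrays of an animal correlated above 0.1 in 9 of 12 animals in adipose (median 0.203), 11 of 12 in liver (0.368) and 7 of 12 in muscle (0.176). The fit with this replicate block was an alternative, as were background correction, filters, scalings, weights, sex, ANOVA and leaving out animals or weak arrays (median correlation with the tissue under 0.9). The fit was tested on simulated data with known changes.

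Genes named are, within a tissue, those called or else the 2 with the smallest p, and between tissues up to 8 called ones in each direction with the largest difference. Others were chosen after their values were seen. The member genes and all lists were chosen with earlier results of these data known. The member genes were described by counts and medians, and no set test was made.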

Additional observations from a re-analysis of the deposited data

Results flagged for a closer look

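The mean of the ribosomal genes and some chosen genes were tested, group by group, for a sample far from the others. Of 56 such tests 3 found one, where chance gives about 1 in 20 for independent tests. These tests share arrays and are not independent, and the other genes were not tested in this way. The mean of the ribosomal genes in muscle of CON on chow was 7.85 on the lowest array, against 8.65 on the next, and this is the weak array CON replicate 5. MRPL2 in adipose of MUN on chow was 9.17 on the highest array, against 8.86 on the next. MRPS35 in muscle of CON on HFCS, without the weak arrays, was 7.61 on the lowest array, against 7.97 on the next.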

How the results depend on the processing

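Between tissues the named differences kept their sign in all alternatives run, with 767 values on the same side of the threshold and 25 no longer past it. When each animal was left out, the counts of called genes ran from 29 to 34 for adipose against liver. They ran from 39 to 41 for adipose against muscle and from 31 to 36 for liver against muscle. With CON on chow alone they were 19, 25 and 17 in that order, and that fit kept the weak muscle array. The median for adipose against liver was -0.015 under median scaling. Within tissues 0 genes were called in adipose and liver under any alternative, and 0 in muscle in each fit that left out 1 animal and kept the weak array otherwise. The fit with the replicate block on all arrays called 0 within tissues. Without weak arrays it called 2 in muscle of CON on HFCS against chow. The same comparison gave 1 without weak arrays, 9 under median scaling and 10 under both, and the difference between the diet changes gave 6 under both.

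Medians moved as follows. For liver HFCS against chow in MUN they were -0.314 with normexp background, -0.0463 for probes on all 24 arrays, -0.0285 under median scaling, -0.0154 with array weights, -0.0138 without weak arrays (also with ANOVA), -0.0129 with the block added and -0.0033 under median scaling without weak arrays. For the difference between the diet changes in liver they were -0.294 with normexp background, -0.0398 under median scaling, -0.0357 with weights, -0.0261 without weak arrays (also with ANOVA), -0.0318 with the block added and -0.0235 under median scaling without weak arrays. For MUN against CON in liver on chow they were -0.105 under median scaling, 0.0218 with weights and -0.0112 under median scaling without weak arrays, and on HFCS -0.183 under median scaling. Under median scaling they were also -0.0676 in adipose (MUN against CON on HFCS), 0.303 in muscle (HFCS against chow in CON) and -0.446 (difference between the diet changes in muscle).

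Signs turned for MRPL16 in liver (MUN against CON on chow), with -0.17 under median scaling and -0.024 under it without weak arrays, and for MRPL11 in muscle (both groups), with 0.015 under median scaling. In muscle of CON MRPL23 was 0.18 under median scaling. There MRPS17 was positive with all arrays and was -0.37 with weights, -0.41 without weak arrays (also with ANOVA, and with the block), -0.095 under median scaling without them, -0.43 also without the array with hepatocyte markers and, with single animals left out, ran from -0.394 (without CON replicate 5) to 0.161 (without CON replicate 4). Causes were not tested. Fits that combine leaving out the weak arrays with another change were chosen after seeing the data. Signal near background limits the dim probes, and a difference not called may still exist at this number of arrays.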
